A study of Homo sapiens with 9 samples.

Results

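The glutathione transferases *GSTM1*, *GSTM2*, *GSTM3*, *GSTM4*, *GSTM5* and *GSTP1* were followed in RNA-seq of LNCaP prostate cancer cells. They are 6 of the 19984 genes in the deposited table, found by symbol after matching Ensembl identifiers, and all 6 were found. The set was chosen from earlier results on these same contrasts with the WT clone, so the members' own normalized counts and differences are given as a description, with no test. LNCaP is an established human prostate adenocarcinoma line of luminal character. A wild-type (WT) clone and the 2 *EPCART*-del lines, del-4 and del-56, all made with CRISPR-Cas9, gave 3 libraries each, 1 per culture grown for 48 h in serum medium. In del-4 and del-56 the promoter and first exons of the long noncoding RNA gene *EPCART* are deleted. Each group is the progeny of 1 clone, so the deletion and other differences between clones cannot be told apart. *EPCART* itself was not analysed here, since only protein-coding genes were counted.

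Cytosolic glutathione transferases join the tripeptide glutathione to electrophilic compounds, which makes them soluble and marks them for export from the cell. The mu class is encoded by the *GSTM* genes, a cluster of close paralogs, and the pi class in humans by the single gene *GSTP1*. In the prostate *GSTP1* is known for loss of expression in cancer together with methylation of the CpG island at its promoter, and *GSTM1* is known for a common inherited deletion of the whole gene.

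In GRCh38 with GENCODE version 44, the *GSTM* genes lie on chromosome 1 in the order *GSTM4* (positions 109656099 to 109665496), *GSTM2* (109668022 to 109709551), *GSTM1* (109687814 to 109709039), *GSTM5* (109711780 to 109775428) and *GSTM3* (109733932 to 109741038). *GSTM3* is on the minus strand and the others are on the plus strand. *GSTP1* lies on chromosome 11, positions 67583742 to 67586656, on the plus strand. The span of *GSTM1* is contained in that of *GSTM2*, and the span of *GSTM3* is contained in that of *GSTM5*. The canonical transcript of *GSTM5* runs from 109712251 to 109718268 and ends before *GSTM3* begins, and only a longer annotated transcript of *GSTM5* carries its span across *GSTM3*, which then lies in an intron.

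**Figure D1:**
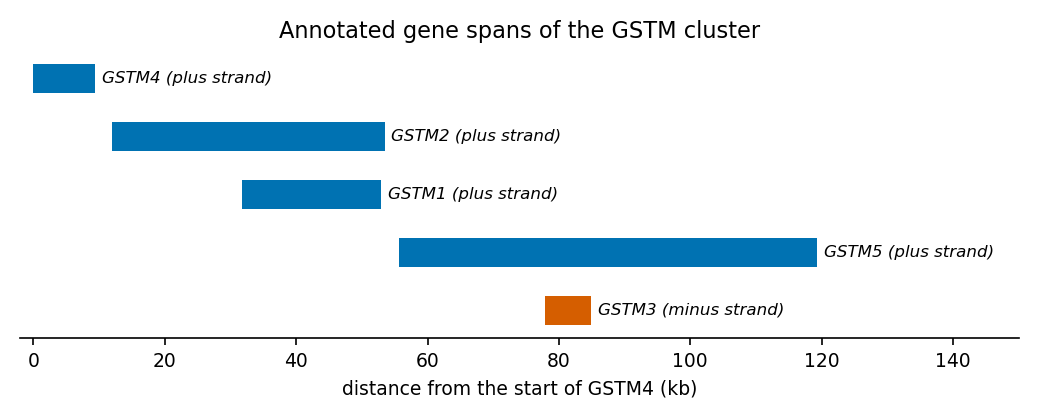
Annotated spans of the 5 *GSTM* genes, drawn to scale against distance in kb from the start of *GSTM4*, with plus-strand genes in blue and the minus-strand gene in orange. The span of *GSTM1* falls inside *GSTM2* and that of *GSTM3* falls inside *GSTM5*.

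The coding sequences show how far reads of 1 member could be taken for another. The same 60 aligned coding bases are shown for the 5 *GSTM* genes because this stretch has no gap in any of them. Coding bases 61 to 120 are given for *GSTM3* and 49 to 108 for the others, from the canonical GENCODE transcripts, with capitals where a base differs from *GSTM3*.
GSTM3: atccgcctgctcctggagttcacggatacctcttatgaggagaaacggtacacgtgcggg
GSTM1: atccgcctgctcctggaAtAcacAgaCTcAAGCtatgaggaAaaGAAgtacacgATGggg
GSTM2: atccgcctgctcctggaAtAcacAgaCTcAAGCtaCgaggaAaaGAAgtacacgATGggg
GSTM4: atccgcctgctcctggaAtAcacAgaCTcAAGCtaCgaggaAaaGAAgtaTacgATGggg
GSTM5: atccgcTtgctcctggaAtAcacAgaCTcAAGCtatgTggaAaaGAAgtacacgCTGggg
The other *GSTM* genes differed from *GSTM3* at 16 (*GSTM1*), 17 (*GSTM2*), 18 (*GSTM4*) and 18 (*GSTM5*) of these 60 bases. Over whole coding sequences, *GSTM3* was 73.3% identical to *GSTM1*, 71.3% to *GSTM2*, 74.1% to *GSTM4* and 72.6% to *GSTM5*. The remaining *GSTM* genes were closer to each other, at 87.6% for *GSTM2* and *GSTM5* up to 92.5% for *GSTM1* and *GSTM4*. *GSTP1* was 53.8% to 56.2% identical to the *GSTM* genes. None of the 3973 stretches of 150 bases, the read length, in the canonical transcript of *GSTM3* occurred in any annotated transcript of the other members. Between *GSTM1* and *GSTM2*, 330 of the 1015 such stretches of *GSTM1* were also part of a *GSTM2* transcript.

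Promoter windows of 250 bases before and 50 after the start, from the RefSeq table of GRCh38.p14, were matched for all 6 members. They are shown for the member with most reads and the member with fewest, with each CpG in capitals.
GSTM3: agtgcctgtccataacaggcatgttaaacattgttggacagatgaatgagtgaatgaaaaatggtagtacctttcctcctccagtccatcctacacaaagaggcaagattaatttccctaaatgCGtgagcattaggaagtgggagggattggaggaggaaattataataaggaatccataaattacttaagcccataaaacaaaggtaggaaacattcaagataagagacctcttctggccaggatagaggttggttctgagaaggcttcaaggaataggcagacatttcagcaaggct
GSTP1: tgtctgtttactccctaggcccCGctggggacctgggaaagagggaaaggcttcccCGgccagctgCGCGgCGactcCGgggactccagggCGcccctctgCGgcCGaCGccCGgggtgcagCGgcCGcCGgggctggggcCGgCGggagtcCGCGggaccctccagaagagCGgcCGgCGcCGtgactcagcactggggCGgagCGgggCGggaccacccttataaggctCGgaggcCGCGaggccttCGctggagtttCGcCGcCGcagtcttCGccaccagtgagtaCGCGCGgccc
The *GSTM3* window is chr1:109740989-109741288 on the minus strand and the *GSTP1* window is chr11:67583562-67583861 on the plus strand. The *GSTP1* window held 36 CpG, at or above the number in 88.7% of 35116 promoters of this length, whose median was 14. The *GSTM3* window held 1 CpG, and 11% of promoters held as few or fewer. A second annotated start of *GSTM3*, 522 bases downstream, has 16 CpG in a window of the same length, and gene counts do not tell which start was used. The other windows held 22 CpG (*GSTM1*), 17 (*GSTM2*), 21 (*GSTM4*) and 22 (*GSTM5*). The letters TGACNNNGC, the core of the antioxidant response element, were searched on both strands and matched once each in *GSTP1*, *GSTM1* and *GSTM5* and not in the windows of *GSTM2*, *GSTM3* and *GSTM4*, while 13.3% of all promoters held a match.

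The values are normalized counts, that is, reads on a gene divided by 1 size factor per library. Reads summed over genes ranged from 91074556 to 118877134 per library, the lowest being del-56 replicate 3. A read on overlapping genes can count more than once in these sums. All 9 luminal prostate and LNCaP markers, androgen receptor and *KLK3* among them, had a mean of at least 10, and their summed normalized count was between 351112 and 371821 in every library. Of the 6 basal markers, 3 reached a mean of 10 and *KRT5* had a mean of 0.21, and of the 10 stromal, endothelial and immune markers 5 reached it and *CD3E* was at 0 in every library. Of the 5 neuroendocrine markers only *SYP* reached it. The summed normalized count of the basal list was 3590 to 4058 in del-4, 3657 to 3839 in del-56 and 4215 to 4312 in WT libraries. For the stromal, endothelial and immune list it was 2488 to 2880, 2962 to 3394 and 2500.0 to 2630.1, and for the neuroendocrine list 108 to 172, 152 to 162 and 152 to 247. The basal sum was nearly all *ITGA6*, an integrin subunit with a mean of 3878, which fell by 0.18 in del-4 and by 0.21 in del-56 on the log2 scale (adjusted p = 0.00715 and 0.00147 in limma). The other basal markers that reached a mean of 10 had positive log2 differences, 0.47 and 0.20 for *KRT14* (not called) and 0.86 (not called) and 1.98 (adjusted p = 0.00481 in limma) for *NGFR*. Of the stromal, endothelial and immune list, *COL1A1* (mean 1167) rose by 0.33 in del-4 and 0.34 in del-56 (adjusted p = 0.00368 and 0.00184 in limma). *ACTA2* (mean 555) and *LUM* (mean 70.5) were called higher in del-56 only, by 0.54 and 2.20. *VWF* (mean 514) was called lower in del-4 only, by 0.97, and *CD68* (mean 532) was not called in either clone. The part of these markers in the values below was not tested.

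*GSTM3* was the member with abundant RNA, and its level in the *EPCART*-del clones was 1.85 to 1.96 times that in WT. The enzyme is the most divergent of the mu class and is well known in brain and testis. Its normalized count was 20679, 18246 and 19378 in the del-4 cultures, 18186, 18185 and 18696 in the del-56 cultures and 10274, 9710 and 9753 in the WT cultures. All 6 *EPCART*-del libraries lay above all WT libraries, whereas del-4 and del-56 overlapped. The means were 19434 ± 1217 (SD, n = 3) for del-4, 18355 ± 295 (SD, n = 3) for del-56 and 9912 ± 314 (SD, n = 3) for WT, a ratio to WT of 1.96 and 1.85. On the log2(normalized count + 1) scale the difference from WT came to 0.97 (SE 0.043) for del-4 and 0.89 (SE 0.037) for del-56. The difference between the clones, del-4 minus del-56, was 0.08 (SE 0.042). In bulk RNA, fewer cells expressing a gene and less RNA per cell cannot be told apart. Over all 18 settings, which include another pseudocount, filter, scaling or test and leaving out each library, the value ranged from 0.90 to 1.01 in del-4 and from 0.86 to 0.92 in del-56.

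**Figure D2:**
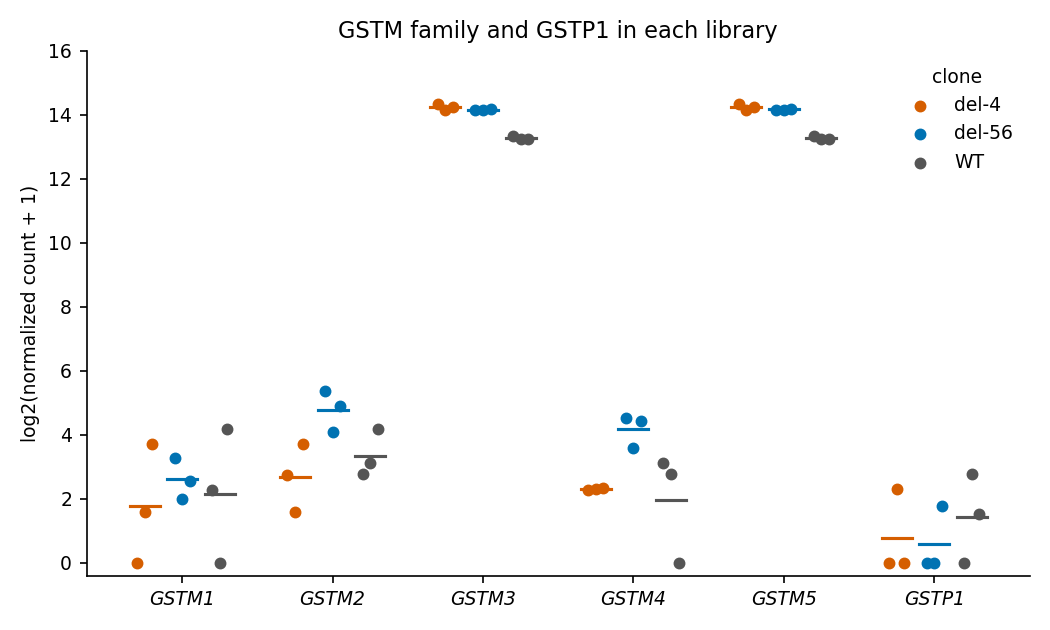
log2(normalized count + 1) of the 6 members in each library, with 3 points per clone and a line at their mean (del-4 orange, del-56 blue, WT grey). *GSTM3* and *GSTM5* sit far above the other members and higher in both *EPCART*-del clones than in WT, and the *GSTM5* points repeat those of *GSTM3*.

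All 6 members passed the filter, a mean normalized count of at least 1, and *GSTP1* did so narrowly. No test of a member is given, since the contrasts with WT served to choose the members.

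*GSTM5*, a mu class enzyme known mainly from brain, had a deposited row almost equal to that of *GSTM3*. Its reads were 21596, 18383 and 19320 in del-4, 19090, 18154 and 15446 in del-56 and 10666, 10070 and 10364 in WT. The reads of *GSTM3* in the same libraries were 21532, 18320 and 19292, then 19060, 18112 and 15418, then 10631, 10060 and 10346. In each library *GSTM3* thus held between 99.7% and 99.9% of the reads on *GSTM5*. The libraries were strand-specific, but in the table an outer gene had at least as many reads as a gene nested in it on the opposite strand in 3987 of 3987 values (443 pairs with the same identifier version in the file and GENCODE version 44). Counting over whole spans, introns included and without strand, gives such values.

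The reads left on *GSTM5* after subtracting *GSTM3* were few. They numbered 64, 63 and 28 in del-4, 30, 42 and 28 in del-56 and 35, 10 and 18 in WT. All 3 clones overlapped, although 2 del-4 libraries were highest. As normalized counts they came to 50.8 ± 19.6 (SD, n = 3) for del-4, 34.9 ± 6.8 for del-56 and 20.1 ± 12.4 for WT. These reads may lie anywhere in the rest of the span, which also contains *EPS8L3* with 0 to 5 reads per library. The deposited difference of *GSTM5*, 0.97 in del-4 and 0.89 in del-56, is therefore that of *GSTM3* and is not read as a difference of *GSTM5*.

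*GSTM2* and *GSTM1*, mu class enzymes of wide tissue range, were near the lower limit of detection. *GSTM2* had 6, 2 and 12 reads in del-4, 42, 16 and 24 in del-56 and 6, 8 and 18 in WT. *GSTM1* had 0, 2 and 12 reads in del-4, 9, 3 and 4 in del-56 and 4, 0 and 18 in WT. The highest count of each in del-4 and in WT came from replicate 3, where both genes had the same 12 and 18 reads. The mean normalized count of *GSTM2* was 28.4 ± 12.0 (SD, n = 3) for del-56, 6.60 ± 5.08 for del-4 and 10.2 ± 5.97 for WT. Del-56 overlapped WT (1 WT library at 17.0, above the lowest del-56 library at 16.1) and did not overlap del-4.

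Subtracting *GSTM1* gives the reads on the *GSTM2* span that lie outside its nested neighbour. Because *GSTM1* and *GSTM2* share stretches of the read length, some reads may be placed on the wrong gene. *GSTM2* minus *GSTM1* left 6, 0 and 0 reads in del-4, 33, 13 and 20 in del-56 and 2, 8 and 0 in WT. Every del-56 library then lay above every other library, and in 3 of the 9 libraries all reads of *GSTM2* were also reads of *GSTM1*. *GSTM1* itself overlapped between all 3 clones, at 4.68 ± 6.46 (SD, n = 3), 5.48 ± 2.84 and 6.94 ± 8.89 normalized counts in del-4, del-56 and WT. A difference in *GSTM1* was not detectable at this depth.

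**Figure D3:**
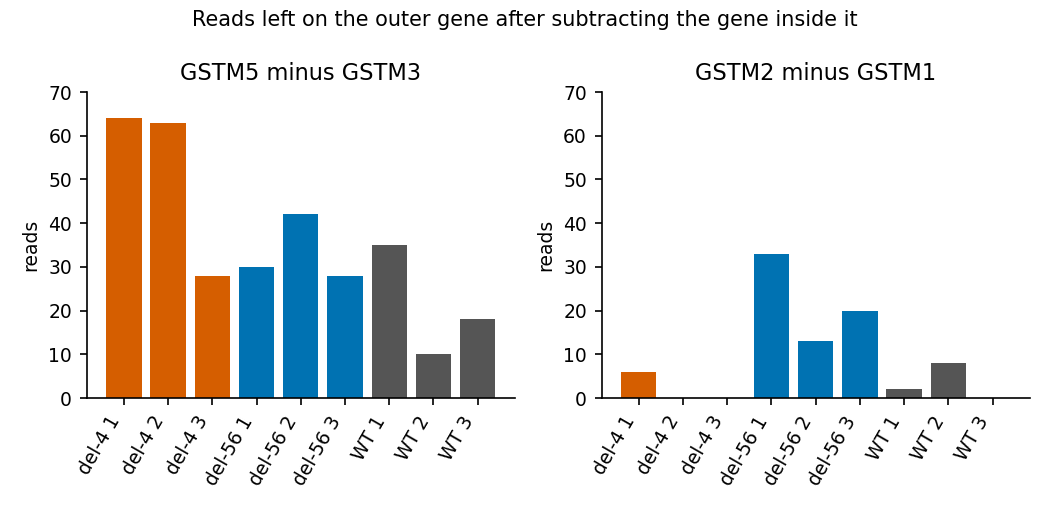
Reads per library left on *GSTM5* after subtracting *GSTM3* (left) and on *GSTM2* after subtracting *GSTM1* (right), with del-4 in orange, del-56 in blue and WT in grey. The left panel spans 10 to 64 reads with overlapping clones, and the right panel has 13 to 33 reads in del-56 and at most 8 elsewhere.

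*GSTM4*, a mu class enzyme at the other end of the cluster that overlaps no other member, was also low. It had 4, 4 and 4 reads in del-4, 23, 11 and 17 in del-56 and 8, 6 and 0 in WT. Every del-56 library lay above every del-4 and WT library. The mean normalized count was 17.9 ± 5.95 (SD, n = 3) for del-56, 3.95 ± 0.094 for del-4 and 4.51 ± 4.02 for WT. The log2 difference of del-56 from WT was 2.22 (SE 0.78), and without WT replicate 3, the library with 0 reads, it was 1.24. Of the 28 values above 0 among *GSTM1*, *GSTM2*, *GSTM4* and *GSTP1*, 23 were even numbers, as were 83.8% of all values of 1 to 20 reads, so that 2 reads mostly stand for 1 fragment.

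*GSTP1* RNA was at the floor in all clones. It had 0, 4 and 0 reads in del-4, 0, 0 and 2 in del-56 and 0, 6 and 2 in WT. The clones overlapped, and 5 of the 9 libraries had no read. A count of 0 allows up to 3 independent counts, here mostly fragments of 2 reads, so no fold is given. Summed over all genes, these libraries held 91074556 or more reads, in which a read on overlapping genes can count more than once. Methylation was not measured in these libraries.

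Per kb of annotated exon, *GSTM3* stood highest of the members in all clones. The reads may include introns and overlapping genes, and the *GSTM2* row holds the *GSTM1* reads. Values per kb of exon are therefore only a rough measure of RNA level. In WT, *GSTM3* had 2087 normalized counts per kb, *GSTM1* 2.76, *GSTP1* 1.45, *GSTM2* 1.11 and *GSTM4* 0.84, and *GSTM5* is left out because its row holds the reads of *GSTM3*. The 4 low members did not differ from each other beyond their spread in WT. In del-56 *GSTM4* stood at 3.34, *GSTM2* at 3.12, *GSTM1* at 2.18 and *GSTP1* at 0.46 normalized counts per kb. Over all 9 libraries *GSTM3*, at 3347 per kb, was close to *GSTO1*, an omega class transferase, at 3203, and to the microsomal enzyme *MGST1* at 2851. It was below *MGST2*, a microsomal enzyme that also makes leukotriene C4, at 6520. In this cell line nearly all RNA of the mu and pi classes was therefore that of *GSTM3*.

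The 10 nearest protein-coding genes around the *GSTM* cluster with a mean of at least 10, 5 on each side and within 375066 bases, were called higher or not called in the *EPCART*-del clones. Genes were called at a Benjamini-Hochberg adjusted p under 0.05 in limma, fitted over all genes. In del-4, 6 were called higher and none lower, beside a background of 20.5% of 17401 genes higher and 20.2% lower, with a median log2FC of 0.29, and in del-56, 5 were called higher and none lower, beside 19.2% of 17481 genes higher and 20.5% lower, with a median of 0.18. Over all genes tested the median was -0.003 and -0.001. *GSTM3* exceeded 9 of the 10 neighbours in del-4 and 10 of 10 in del-56. The members were chosen from these same contrasts and the neighbours were not, so this rank is a description only. Between the clones 1 neighbour was called higher in del-4 and 1 lower, beside 10.9% of 17447 genes higher and 9.0% lower, with a median of -0.0003. With each library scaled to the same total, the calls over all genes moved to 2364 higher and 4932 lower in del-4, from 3565 and 3517, and in del-4 against del-56 to 1381 higher and 2383 lower, from 1898 and 1571.

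Among the 7 of these neighbours within 250 kb of the cluster, *GNAI3*, an inhibitory G protein subunit, had a log2FC of 0.27 (SE 0.036, adjusted p = 7.9e-06) for del-4 and 0.29 (SE 0.043, adjusted p = 5.06e-05) for del-56. These and all further adjusted p-values are Benjamini-Hochberg values from limma over all genes, unless another tool is named. *AHCYL1*, a regulator of inositol trisphosphate receptors, rose by 0.31 and 0.36 (adjusted p = 2.14e-06 and 6.63e-07 in limma). *AMIGO1*, a neuronal adhesion molecule, rose by 0.48 (SE 0.079, adjusted p = 8.67e-05 in limma) for del-4 and 0.81 (SE 0.075, adjusted p = 3.89e-07) for del-56. *CSF1*, the macrophage growth factor, had mean normalized counts of 53.1 (WT), 57.4 (del-56) and 112 (del-4), a log2FC of 1.05 (SE 0.25, adjusted p = 0.00265 in limma) for del-4 and 0.10 (SE 0.28, adjusted p = 0.818) for del-56.

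**Figure D4:**
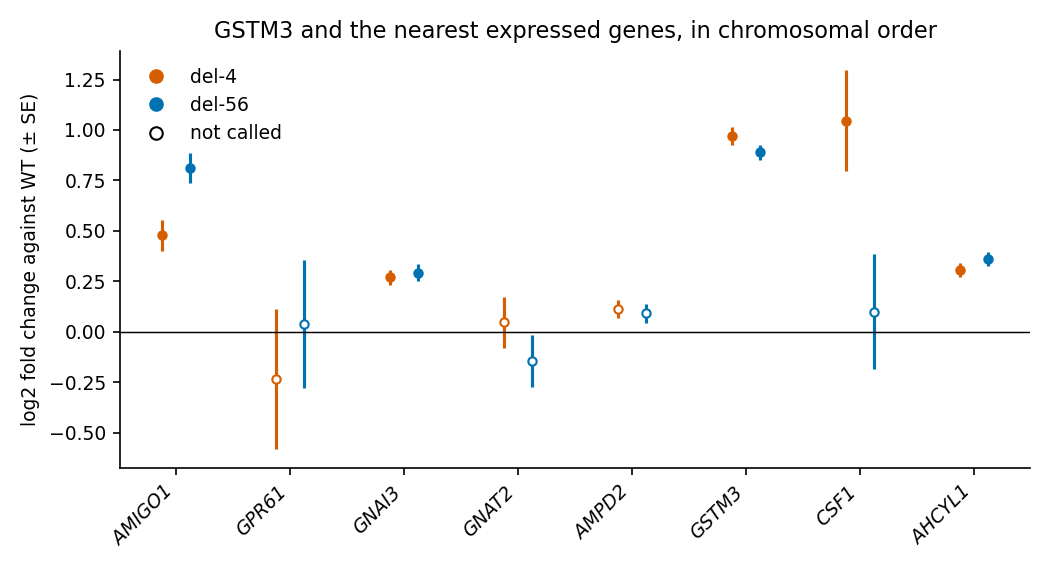
log2 fold change against WT (± SE) of *GSTM3* and of the 7 nearest expressed genes within 250 kb, in chromosomal order, with del-4 in orange, del-56 in blue and open points for genes not called. *GSTM3* is drawn filled as a description with no test; it stands above all 7 except *CSF1* in del-4.

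The same tendency ran along that part of the chromosome. The 972 genes tested on chromosome 1 below position 120000000 had a median log2FC of 0.22 in del-4, with 79.1% above 0, and the 976 in del-56 had a median of 0.23, with 80.9% above 0. Between del-4 and del-56 their median was -0.01. The part of this shift in the level of *GSTM3* was not tested. Around *GSTP1*, the 10 nearest such genes had medians of -0.05 and -0.13. In del-4, 1 was called higher and 3 lower, beside 20.5% of all genes tested higher and 20.2% lower. In del-56, 0 were called higher and 5 lower, beside 19.2% and 20.5% of all genes.

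The 5 genes whose profile over the 9 libraries was closest to that of *GSTM3*, among 13084 genes outside the 6 members with a mean of at least 100, were *TP53INP1*, *GSN*, *BAG2*, *SLC4A4* and *PDGFA*. Likeness was the root mean square difference of log2 values, each relative to its WT mean. It was 0.074 for *TP53INP1*, a p53-induced stress protein, 0.075 for *GSN*, the actin-severing protein gelsolin, and 0.078 for *BAG2*, a co-chaperone. It was 0.085 for *SLC4A4*, a sodium bicarbonate cotransporter, and 0.11 for *PDGFA*, a platelet-derived growth factor, against a median of 0.77 over the candidates. *GSTM5*, whose row holds the reads of *GSTM3*, was left out with the other members. *TP53INP1*, *GSN* and *BAG2* each share bases with an expressed gene on the opposite strand, so their counts may include its reads. These genes were found by their likeness, and their levels are a description.

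The rest of the glutathione pathway was read from 5 lists with 60 genes in the table outside the members. In del-4, 14 of 53 tested were called higher and 11 lower, beside 20.5% of all genes tested higher and 20.2% lower. In del-56, 10 of 52 were called higher and 17 lower, beside 19.2% and 20.5% of all genes. Between del-4 and del-56, 12 of 52 were called higher and 5 lower, beside 10.9% and 9.0% of all genes. The same shares over all genes stand beside the counts of the single lists below. The median log2FC over the lists stood at 0.004 for del-4 and -0.01 for del-56, close to that of all genes. Since both clones are compared with the same WT libraries, values of the clones are set side by side and not correlated.

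**Figure D5:**
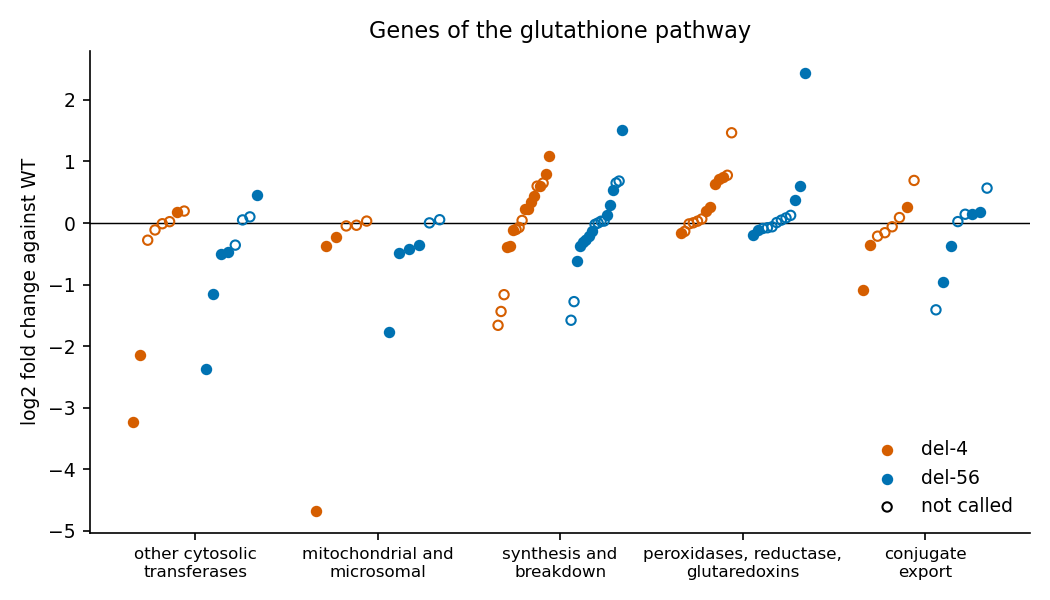
log2 fold change against WT of the tested genes of 5 glutathione lists in del-4 (orange) and del-56 (blue), ordered by value within each list; filled points were called at an adjusted p under 0.05 and open points were not. Transferases reach furthest below 0, with *PTGES* at -4.67 and *GSTA1* at -3.22 in del-4.

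Among the cytosolic transferases outside the members, 8 of 11 were tested, and *GSTT1* and *GSTT2* were not analysed here. In del-4, *GSTO1* was called higher and *GSTA1* and *GSTA2* lower, and in del-56 *GSTT2B* was called higher and *GSTA1*, *GSTA2*, *GSTA4* and *GSTZ1* lower. *GSTA1*, an alpha class enzyme abundant in liver, fell in both clones. Its normalized count ranged from 144 to 176 in del-4, 260 to 325 in del-56 and 1429 to 1546 in WT, with no overlap. The log2FC was -3.22 (SE 0.11, adjusted p = 2.35e-13 in limma) for del-4 and -2.36 (SE 0.10, adjusted p = 4.81e-11) for del-56. *GSTA2*, its close paralog, had 26.1 to 58.8 in del-4, 65.3 to 115 in del-56 and 173 to 240 in WT. Its log2FC was -2.14 (SE 0.29, adjusted p = 9.12e-06 in limma) for del-4 and -1.15 (SE 0.23, adjusted p = 0.000893) for del-56. *GSTA1* and *GSTA2* are nearly identical, and how reads were divided between them is uncertain. Both fell in the libraries in which *GSTM3* was higher.

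Among the mitochondrial and microsomal transferases, 3 of 6 tested were called lower in del-4 and 4 in del-56, and none was called higher. *PTGES*, which makes prostaglandin E2 with glutathione as a cofactor, ranged from 0 to 11.5 normalized counts in del-4, 12.0 to 24.8 in del-56 and 46.4 to 75.3 in WT. Its log2FC was -4.67 (SE 0.79, adjusted p = 0.000107 in limma) for del-4 and -1.77 (SE 0.39, adjusted p = 0.00163) for del-56. The del-4 value was -3.09 with a pseudocount of 5 and its call was lost in DESeq2 (adjusted p = 0.0657), and the del-56 call was lost in 1 fit of all libraries (adjusted p = 0.0664). *MGST2* fell by 0.37 (SE 0.037, adjusted p = 3.45e-07 in limma) for del-4 and by 0.42 (SE 0.057, adjusted p = 2.63e-05) for del-56. It shares bases with *MAML3* on the opposite strand. *GSTK1*, the mitochondrial and peroxisomal kappa class enzyme, fell by 0.23 (SE 0.052, adjusted p = 0.00168 in limma) for del-4 and by 0.48 (SE 0.051, adjusted p = 1.87e-06) for del-56.

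Of the genes of glutathione synthesis and breakdown, 7 of 18 were called higher and 3 lower in del-4, and 4 of 18 higher and 5 lower in del-56. *GGT6*, a gamma-glutamyltransferase, had means of 40.1, 54.5 and 19.5 in del-4, del-56 and WT and a log2FC of 1.09 (SE 0.41, adjusted p = 0.0409 in limma) and 1.51 (SE 0.40, adjusted p = 0.00638). Its del-4 call was lost in edgeR (adjusted p = 0.0805), in DESeq2 (adjusted p = 0.0747), with no filter or with equal totals, and without any single library except WT replicate 2. *GGT1*, which cleaves extracellular glutathione, rose by 0.44 (SE 0.071, adjusted p = 7.59e-05 in limma) and 0.54 (SE 0.068, adjusted p = 1.14e-05). *CHAC2*, which degrades glutathione in the cytosol, fell by 0.39 (SE 0.078, adjusted p = 0.000622 in limma) and by 0.61 (SE 0.080, adjusted p = 1.47e-05). *GGCT*, gamma-glutamylcyclotransferase, fell by 0.37 (adjusted p = 1.75e-07 in limma) and by 0.37 (adjusted p = 7.75e-06). *GGT1*, *CHAC2* and *GGCT* each lie within or across another annotated gene whose normalized count was 1150%, 406% and 77.7% of their own, and their reads cannot be separated from it.

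Of the peroxidases, reductase and glutaredoxins, 5 of 13 were called higher and 1 lower in del-4, and 3 of 12 higher and 2 lower in del-56. *PRDX6*, a peroxiredoxin that takes glutathione as its reductant with the help of the pi class enzyme, was the most abundant of the named genes. Its normalized count was 78714 ± 2430.4 (SD, n = 3) for del-4, 72694 ± 4863 for del-56 and 47656 ± 443 for WT. The log2FC was 0.72 (SE 0.037, adjusted p = 3.97e-11 in limma) for del-4 and 0.61 (SE 0.046, adjusted p = 4.96e-08) for del-56, with all *EPCART*-del libraries above WT. *GLRX*, cytosolic glutaredoxin, rose by 0.27 (SE 0.048, adjusted p = 0.00019 in limma) and 0.37 (SE 0.051, adjusted p = 2.28e-05). *GLRX2*, its mitochondrial counterpart, fell by 0.17 (SE 0.039, adjusted p = 0.00207 in limma) and by 0.19 (SE 0.060, adjusted p = 0.0192), and its del-56 call was lost without del-56 replicate 1 (log2FC -0.10, adjusted p = 0.0714), without WT replicate 1 (0.0573) or 2 (0.0837), with quantile normalization (0.0585) and with no filter (0.179). *GLRX* shares bases with *RHOBTB3* and *GLRX2* with *RO60*, both expressed and on the opposite strand.

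Of the exporters of glutathione conjugates, 1 of 8 was called higher and 2 lower in del-4, and 2 of 8 higher and 2 lower in del-56. *ABCC1*, the multidrug resistance protein that exports glutathione conjugates, fell by 0.36 (SE 0.039, adjusted p = 7.67e-07 in limma) for del-4 and by 0.37 (SE 0.044, adjusted p = 5.26e-06) for del-56. *ABCG2*, a drug transporter of wide substrate range, ranged from 38.2 to 63.4 in del-4, 41.2 to 67.7 in del-56 and 90.7 to 119 in WT. It fell by 1.08 (SE 0.27, adjusted p = 0.00361 in limma) and by 0.95 (SE 0.27, adjusted p = 0.0096), and the del-56 call was lost without WT replicate 3 (adjusted p = 0.0528).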

How the data were processed

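RNA-seq of polyA RNA (strand-specific, 150 base paired-end reads) was measured in 3 cultures each of del-4, del-56 and WT. Per the labels and the study's methods, the authors used Trim Galore 0.6.5, FastQC 0.11.8, STAR 2.71a on GRCh38, SAMtools 1.8 and BEDTools 2.27.1 multicov with GENCODE version 38 protein-coding genes. The deposited file holds a signal per gene and library, the normalized count: the authors divided the reads on each gene by a DESeq2 size factor. Whole reads were recovered for 100% of values (tolerance 1e-06). Counting error sets the precision of low values, and intervals and floors cover counting error only.

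Of 19984 identifiers, 19923 were matched to symbols in GENCODE version 44 and 61 were not. Groups came from sample titles. The p-values measure the spread between cultures of 1 clone. limma 3.58.1 (R 4.3.3) was run on log2(normalized count + 1) with a variance trend, after dropping genes whose mean over the 6 fitted libraries was under 1, and genes were called at a Benjamini-Hochberg adjusted p under 0.05. The deposited values are normalized and not raw counts, so limma was the main test, although whole reads could be recovered. Alternatives were pseudocounts of 0.5 and 5, no filter, a mean of at least 10, equal totals, TMM and quantile scaling, 1 fit of all libraries, a replicate block, edgeR 4.0.16, DESeq2 1.42.0, the study's thresholds and each library left out. On recovered reads edgeR called 3529 genes higher and 3520 lower for del-4 against WT, and 3418 and 3525 for del-56. The fits were tested on simulated data with the same dispersion for every gene. Only genes with higher means were changed there, so recovery of changes at low counts was not tested.

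All 6 members were named. From each list up to 4 genes were named, those with the largest mean change that averaged 10 or more and were called in both clones, and then the 5 nearest neighbours on each side (near the *GSTM* cluster only those within 250 kb are given singly, and single values of the others are not reported here) and the 5 genes most like *GSTM3*. Members, lists and rules were chosen with earlier results of these data known. Sequences are from RefSeq (GRCh38.p14) and GENCODE. Identity was computed in Biopython 1.88 on global alignments. Same-numbered libraries of different clones did not deviate together (r from -0.053 to 0.063 over genes), so numbers were not used to pair them.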

Additional observations from a re-analysis of the deposited data

Results flagged for a closer look

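Some genes differed between the *EPCART*-del clones in the direct comparison of 3 del-4 with 3 del-56 libraries (limma, Benjamini-Hochberg adjusted p over all genes), so their effects against WT were not of 1 size. Values are log2, del-4 minus del-56. *GSTA1* differed by -0.86 (adjusted p = 0.000986) and *GSTK1* by 0.26 (adjusted p = 0.00267), and both were lower than WT in each clone. *GSTA2* differed by -0.99 (adjusted p = 0.0458), but this call was lost in edgeR (0.0524), with quantile normalization (0.0736), with a pseudocount of 0.5 (0.0503), with no filter (0.233) and without del-4 replicate 1 or 3 or del-56 replicate 1 or 3, and the value was -0.63 without del-4 replicate 3. *PTGES* differed by -2.90 (adjusted p = 0.0297), a call lost in edgeR (0.193) and DESeq2 (0.146), with no filter or a mean of at least 10, and without any single library except del-4 replicate 1. Its value was -1.53 with a pseudocount of 5.

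Near the *GSTM* cluster, *AMIGO1* differed by -0.33 (adjusted p = 0.00257 in limma) and *CSF1* by 0.95 (adjusted p = 0.0147). The *CSF1* call was lost with no filter (0.078) and without del-4 replicate 3 (0.0977) or del-56 replicate 2 (0.0505).

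*GSTM4* lay on opposite sides of the arithmetic WT mean of normalized counts in the 2 clones, but not on the log2 scale. There its difference from WT was 0.34 (SE 0.90) in del-4 and 2.22 (SE 0.78) in del-56, so no opposite effect is read from it. No test is given for it as a member, and its log2 difference, del-4 minus del-56, was -1.87 (SE 0.58). All 3 del-4 libraries were below the WT mean of 4.51 normalized counts and all 3 del-56 libraries were above it, while the WT libraries themselves ran from 0 to 7.73.

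*SLC7A11* and *SLC3A2*, the light and heavy chains of the cystine transporter that feeds glutathione synthesis, moved in opposite directions in the clones. They were singled out after their values were seen. *SLC7A11* differed between the clones by 0.81 (adjusted p = 7.1e-09 in limma) and *SLC3A2* by 0.36 (adjusted p = 1.12e-05). Differences of this size were not particular to the transporter. *GPX8* differed by 0.82 (adjusted p = 3.77e-08 in limma) and *CHAC1* by 0.80 (adjusted p = 2.98e-06), among 12 list genes called higher in del-4 and 5 called lower.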

How the results depend on the processing

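The log2 differences of *GSTM3* moved by less than the spread between replicates under every alternative run. The study's thresholds (p under 0.05 and a log2FC beyond 1 either way) were applied here to unadjusted p from limma. The study itself used the Wald test of DESeq2. The glutathione genes called higher and lower were then 1 and 4 in del-4, 2 and 4 in del-56, and 0 and 1 in del-4 against del-56. Over all genes the counts were 399 and 613, 470 and 568, and 331 and 416. With no filter, 6 glutathione genes were called higher in del-56, 3 were called lower in del-4 against del-56, and over all genes 1000 were higher and 854 lower in that comparison. With equal totals, 2364 of all genes were higher in del-4 against WT, and in del-4 against del-56 8 glutathione genes and 2383 of all genes were lower. Leaving out 1 library, del-4 against del-56 gave 3 to 5 glutathione genes lower, 1245 to 2027 of all genes higher and 1021 to 1510 lower, the lowest counts without del-4 replicate 1 or 3. *CSF1* in del-56, not called, ranged from -0.054 (without del-56 replicate 3) to 0.19. The low member *GSTM4* differed by -1.32 between the clones with a pseudocount of 5, against -1.87. Of the tested genes named, 21 of 288 values with 1 library left out and 19 of 528 others lost the call.

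With the replicate number as a block, 3543 genes were called higher and 3495 lower in del-4, 2868 and 3167 in del-56 and 1872 and 1521 in del-4 against del-56, and the block removed the call on *GSTA2* between the clones (adjusted p = 0.0679) and no other of the named genes. The labels do not say that a number marks a shared day or batch.

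Low members rest on 0 to 42 reads a library, so that only large differences can be seen, and subtraction of nested genes assumes that each read of the inner gene was also counted for the outer gene. The cause of the changes above was not tested.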

Other observations

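The cystine transporter was described by neither the members nor the rule for naming list genes. The normalized count of *SLC7A11* was 14214 ± 383 (SD, n = 3) for WT, 21568 ± 1286 for del-4 and 12309.7 ± 1184 for del-56. It rose by 0.60 on the log2 scale in del-4 (adjusted p = 2.61e-09 in limma) and fell by 0.21 in del-56 (adjusted p = 0.00492), and the del-56 call was lost with no filter (0.113). *SLC3A2* rose by 0.23 in del-4 (adjusted p = 0.00032 in limma) and fell by 0.13 in del-56 (adjusted p = 0.00904), a call lost without del-56 replicate 3 (0.0621). *GSTM3*, in the same libraries, was higher than WT in both clones.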
